A study of Mus musculus with 30 samples.

Results

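The alpha and beta globin clusters of the mouse were described by the CTCF and RAD21 peaks that lie in and around them. Members were all peak entries within 100 kb of the annotated spans of Nprl3, Hba-x, Hba-a1 and Hba-a2 (mm10, chromosome 11, window 32131963 to 32397310) and of Hbb-bt, Hbb-bs, Hbb-bh1 and Hbb-y (chromosome 7, window 103712524 to 103953207). They numbered 782 of the 1352462 entries of 30 libraries. The alpha window held 337 CTCF and 248 RAD21 entries, and the beta window held 86 and 111.

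Haemoglobin is built from alpha-like and beta-like chains that are encoded in these clusters, and each cluster is transcribed in red blood cells in an order that changes during development. Hba-x (zeta), Hbb-bh1 and Hbb-y (epsilon) are embryonic genes, whereas Hba-a1, Hba-a2, Hbb-bs and Hbb-bt encode the adult chains. Enhancers of the alpha genes lie in introns of Nprl3, a housekeeping gene, and those of the beta genes lie in a locus control region upstream of Hbb-y. CTCF binds DNA with zinc fingers and stands at the base of many chromatin loops, and RAD21 belongs to cohesin, the ring complex that is often halted at CTCF.

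The libraries were made by ChIPmentation, a chromatin immunoprecipitation with adapter insertion by transposase on the beads, from E10.5 trunks of B6CBAF1 embryos. Crosses were trans-heterozygous per the labels, and the embryos used were homozygous mutants or control littermates (WT). The 6 mutant alleles are numbered by the CTCF binding sites (CBS) they lack in the HoxD cluster on chromosome 2, so none of them lies in a globin cluster. WT was represented by 3 CTCF and 4 RAD21 libraries, and Del(CBS1) by 3 libraries per antibody. Del(CBS2) had 1 library per antibody, and Del(CBS1-2) had 1 for CTCF and 2 for RAD21. The alleles Del(CBS1-3), Del(CBS1-4), and lastly Del(CBS1-5), had 2 per antibody. Embryos were dissociated one by one, but the labels do not say that each library is a separate embryo, so p-values measure only the spread between these libraries. The share of blood cells in each trunk was not measured, and a peak in few cells cannot be told apart from a weak peak in many.

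The lists held 40011 to 88323 CTCF and 16676 to 48102 RAD21 entries. Read depth was unknown, so a position without a peak is one not detected. As a check of the labels, 4 of the 11 CTCF sites of all WT libraries between Evx2 and Hoxd1 were missing from both Del(CBS1-5) libraries. These are fewer than the sites that the label names. Of all 125247 CTCF sites, 290 (0.232%) were in all WT libraries and neither Del(CBS1-5) library. Summits of all libraries of an antibody within 150 bp were linked into 1 site, and a library found a site when a peak of it covered the median summit. The authors' fold enrichment over local background is given as the size of a peak. Its percentile is the share of sites common to all libraries (32080 CTCF, 12972 RAD21) that had a lower fold in that library.

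The strongest CTCF sites beside the alpha globin genes lay at the promoters of the duplicated theta globin genes. The sites were at 32286894, 70 bp from Hbq1b, and at 32299968, 101 bp from Hbq1a, between and beyond the adult genes. Both were found in 14 of 14 CTCF libraries. The 250 bases before each annotated start (RefSeq, GRCm38.p6, plus strand, chr11:32286714-32286963 and chr11:32299819-32300068) are shown because a CTCF summit fell in each of them in all 14 libraries. Capitals mark a match, read on the opposite strand as CCGCCAGGGGGC, to a loose CTCF core of 12 letters with 5 of them free.

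Hbq1b: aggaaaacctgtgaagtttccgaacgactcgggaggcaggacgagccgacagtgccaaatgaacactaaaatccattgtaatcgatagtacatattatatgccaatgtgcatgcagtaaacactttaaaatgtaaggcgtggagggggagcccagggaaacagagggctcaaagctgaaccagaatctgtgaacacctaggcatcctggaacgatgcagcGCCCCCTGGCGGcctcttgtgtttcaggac

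Hbq1a: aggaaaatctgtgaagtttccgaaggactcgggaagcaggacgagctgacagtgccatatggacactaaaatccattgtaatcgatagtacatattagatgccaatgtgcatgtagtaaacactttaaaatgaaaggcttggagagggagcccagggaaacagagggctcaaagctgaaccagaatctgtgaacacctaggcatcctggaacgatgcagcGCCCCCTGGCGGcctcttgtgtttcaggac

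The sequences had the same base at 239 of 250 positions (95.6%, without gaps), and the matched bases were the same in both. The matches lay 40 bp and 71 bp from the CTCF positions. The strict CTCF core, chosen first and with 4 free letters, had no match in either promoter. The loose core was searched on both strands after the sequences had been seen, takes in every match of the strict core, and was present in 7.17% of 32851 promoters of this length. It was present in 47.0% of the 743 promoters with a CTCF summit in every library and in 4.72% of the 27825 promoters with none. Reads of copies this similar can be hard to place, so the 2 peaks are not fully independent measurements.

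The theta promoters had near-equal CTCF peaks. At Hbq1b the WT libraries gave folds of 16.3, 10.3 and 10.4, and the 11 mutant libraries gave 7.71 to 16.0 with a median of 10.0. At Hbq1a the WT folds were 14.5, 10.2 and 11.04, and the mutant folds ran from 8.37 to 14.9 with a median of 10.6. WT and mutant libraries overlapped at both sites, at percentiles of 43.5 to 83.2 (WT) and 36.1 to 86.9 (mutant) for Hbq1b and of 50.0 to 68.8 and 49.6 to 87.3 for Hbq1a. In limma fits of ranks, in units of the normal score, the average of the 6 alleles was 0.14 ± 0.28 (SE) from WT at Hbq1b and 0.31 ± 0.23 at Hbq1a, and both had an adjusted p of 1.00.

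RAD21 at the theta promoters was weak. At Hbq1b (32286906) it was found in 3 of 4 WT and 10 of 12 mutant libraries, with WT folds of 4.59, 3.95 and 4.14 and mutant folds of 3.41 to 6.47. At Hbq1a (32299963) it was found in 0 of 4 WT and 9 of 12 mutant libraries, with folds of 3.64 to 5.67. Percentiles at Hbq1a did not exceed 4.26, so these peaks were among the weakest that RAD21 lists share. A Del(CBS2) peak at 32300166 (fold 4.08) was linked into a separate site, and 10 RAD21 libraries had a peak over the Hbq1a promoter. The difference in the number of libraries was seen in the data first and has no test, and no share over all positions is given for it.

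The promoters of the adult alpha genes contrasted with these. No peak of any of the 30 libraries covered the bodies or the 250 upstream bases of Hba-a1 or Hba-a2. The promoter of Hba-a1 (plus strand, chr11:32283422-32283671) is shown because a run of 247 bases in it recurs without change before Hba-a2, so reads from it cannot be placed in 1 copy.

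Hba-a1: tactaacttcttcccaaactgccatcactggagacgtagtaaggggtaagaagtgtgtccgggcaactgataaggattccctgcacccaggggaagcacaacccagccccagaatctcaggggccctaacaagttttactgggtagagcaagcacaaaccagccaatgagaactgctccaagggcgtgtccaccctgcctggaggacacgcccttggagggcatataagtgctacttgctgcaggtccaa

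None of the letters searched was found in it. How reads of equal copies were treated is not given in the sources used here, and mappability was not tested. Besides both CTCF cores, the letters AGATAA, which GATA factors can bind, were searched on both strands. So was CCACACCC, the box bound by factors such as KLF1.

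**Figure D1:**
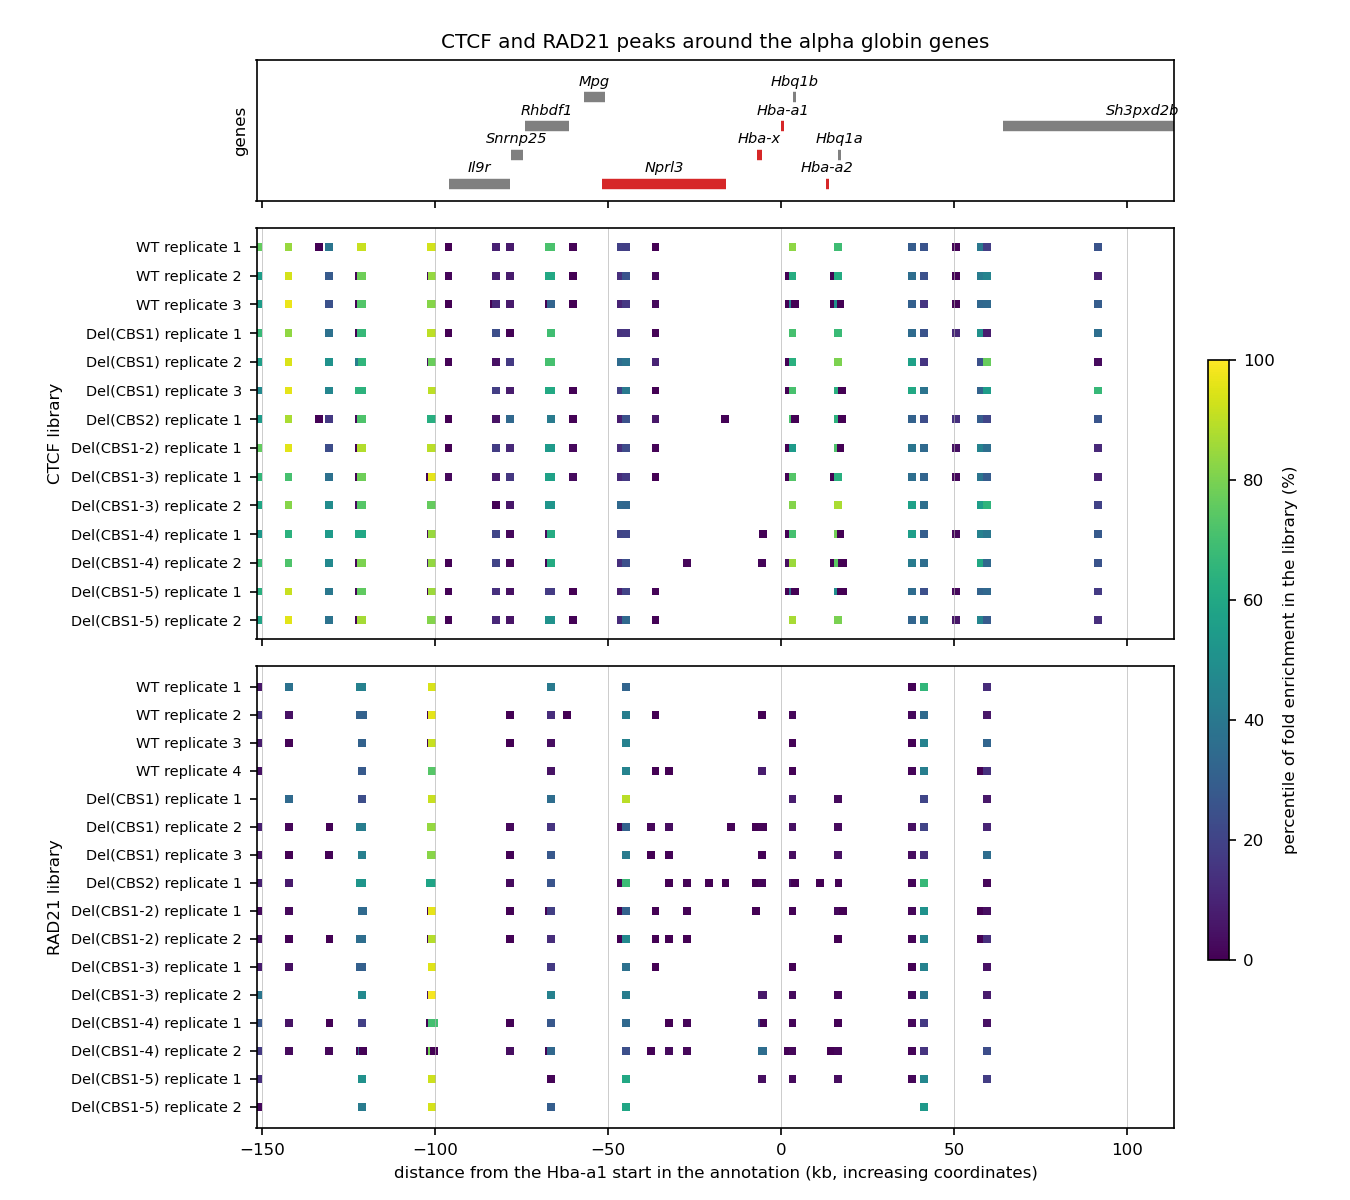
Peaks found in each CTCF and RAD21 library (rows) across the alpha window, against the distance from Hba-a1 in kb, with member genes in red and neighbours in grey above. Squares are sites, coloured by percentile of fold enrichment in the library. CTCF columns run through all 14 rows at the theta genes. Inside Nprl3 a RAD21 column runs through all 16 rows at -45.01 kb, while the other RAD21 squares there are scattered and dark.

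CTCF entries in the alpha window numbered 18 to 29 per library. Linking gave 39 sites, of which 25 were found in all 3 WT libraries and 18 in all 14. Of all 125247 CTCF sites, 39.9% were found in all WT libraries and 25.6% in every library, against 61.2% and 44.9% of the 49 sites of both windows. At 4 of the 25 sites some libraries had no summit of their own, and the value is that of a wide peak whose summit is nearby; these are 32152802, 32162109, 32182354 and 32216551.

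Further CTCF sites, 3 of them with a larger mean WT fold than the theta promoters, stood on the flank beyond Il9r, the interleukin 9 receptor gene. At 32141237 the WT folds were 16.5, 14.2 and 18.1 and the mutant folds ran from 8.44 to 18.3, with percentiles of 84.6 to 97.2 and 63.7 to 95.7. At 32182762, 1250 bp from Gm12109, the WT folds were 18.1, 12.6 and 14.5 and the mutant folds ran from 8.13 to 17.2. The sites at 32162364 and 32132412 had WT folds of 17.7, 11.9 and 13.4 and of 15.4, 9.66 and 11.5. WT and mutant values overlapped at each of them. The site at 32153017 was lower, with WT folds of 11.1, 7.26 and 8.44 and mutant folds of 6.14 to 10.8. A faint site at 32187466, in an annotated Gm12109 span, had WT folds of 3.15, 3.73 and 3.00 and was found in 8 of 11 mutant libraries.

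Weak CTCF sites marked Il9r and the start of Snrnp25, which encodes a protein of the minor spliceosome. The site in the body of Il9r at 32201190 had WT folds of 6.67, 5.30 and 6.61 and mutant folds of 2.65 to 9.11. The site at 32205174, 241 bp before the Snrnp25 span and within Il9r, had WT folds of 6.01, 5.00 and 5.80 and mutant folds of 2.99 to 10.99. Both were found in 14 of 14 libraries at percentiles below 34. Inside Rhbdf1, which encodes a rhomboid-family protein without protease activity, the site at 32217013 was stronger, with WT folds of 14.8, 10.1 and 9.24 and mutant folds of 6.40 to 14.5. The site at 32223511, 1180 bp beyond Rhbdf1, had WT folds of 3.74, 2.57 and 3.06 and was found in 6 of 11 mutant libraries. Mpg, a DNA repair glycosylase gene, had no CTCF peak over its body.

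Nprl3 encodes a component of the GATOR1 complex, an inhibitor of mTORC1 signalling. A pair of CTCF sites lay in its body near the end that adjoins Mpg. The site at 32237204 had WT folds of 8.37, 5.83 and 6.43 and mutant folds of 4.62 to 7.70. The site at 32238660, 1456 bp further on, had WT folds of 8.35, 7.04 and 7.39 and mutant folds of 5.22 to 9.76. Both were found in 14 of 14 libraries, with WT percentiles of 9.85 to 26.0. A further site at 32247269 was faint, at WT folds of 3.16, 4.11 and 4.66, and was missing from both Del(CBS1-4) libraries and from Del(CBS1-3) replicate 2. From there to the Hbq1b promoter no CTCF site of all WT libraries was found for 39.6 kb, an interval that holds the embryonic Hba-x and the adult Hba-a1.

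RAD21 favoured one of these Nprl3 sites. At 32238658 it was found in 16 of 16 libraries, with WT folds of 7.41, 8.71, 8.39 and 10.95 and mutant folds of 6.94 to 13.8. At 32237184 it was found in 0 of 4 WT and 4 of 12 mutant libraries, with folds of 2.20 to 2.85. CTCF folds at the 2 sites overlapped, whereas the RAD21 folds did not. For RAD21 at 32238658 the average of the alleles was 0.20 ± 0.25 normal scores from WT (limma, adjusted p = 0.999).

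Beyond Hbq1a, toward Sh3pxd2b, which encodes an adaptor protein of podosomes, CTCF sites followed at medium strength. At 32321384 the WT folds were 9.75, 7.88 and 9.04 and the mutant folds 6.71 to 10.7. At 32324876 they were 9.42, 6.94 and 7.29 against 4.43 to 9.88. At 32341311 they were 11.2, 8.45 and 9.37 against 5.02 to 12.4. These 3 sites were found in every library, and the groups overlapped at each. At 32343001 the WT folds were 8.24, 8.73 and 9.42 and the mutant folds 6.21 to 9.08. At 32375159, within Sh3pxd2b, they were 9.38, 5.35 and 8.93 against 3.30 to 10.7. The site at 32334224 was faint in WT, at folds of 3.91, 3.35 and 3.72, and was found in 7 of 11 mutant libraries at 3.19 to 7.92.

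RAD21 had 40 sites in the alpha window, of which 8 were found in all 4 WT libraries and 5 in all 16. The strongest was at 32182778, where WT folds were 14.3, 14.4, 13.0 and 13.7 and mutant folds ran from 10.3 to 15.2. The site at 32324850 had WT folds of 10.2, 8.13, 8.43 and 10.8 against 5.67 to 13.6. The site at 32162349 had WT folds of 8.28, 7.88, 7.47 and 9.39 against 5.88 to 12.1. The Rhbdf1 site at 32217030 had WT folds of 8.02, 6.36, 4.77 and 6.34 against 4.13 to 9.51. WT and mutant libraries overlapped at all 5, the Nprl3 site included. The other 3, at 32132393, 32321350 and 32343049, had median WT folds of 5.80, 4.18 and 6.65 and were missing from 1, 2 and 1 mutant libraries.

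In the beta cluster no CTCF site of all WT libraries fell among the globin genes. All Hbb genes lay in an interval of 66.2 kb between sites at 103807090, 5434 bp from the end of Hbb-bt, and 103873283, upstream of Hbb-y on the olfactory receptor side. Among 50011 intervals between neighbouring sites of all WT libraries this length stood at the 80.9th percentile, the median being 19.8 kb. The alpha interval of 39.6 kb stood at the 69.0th percentile.

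**Figure D2:**
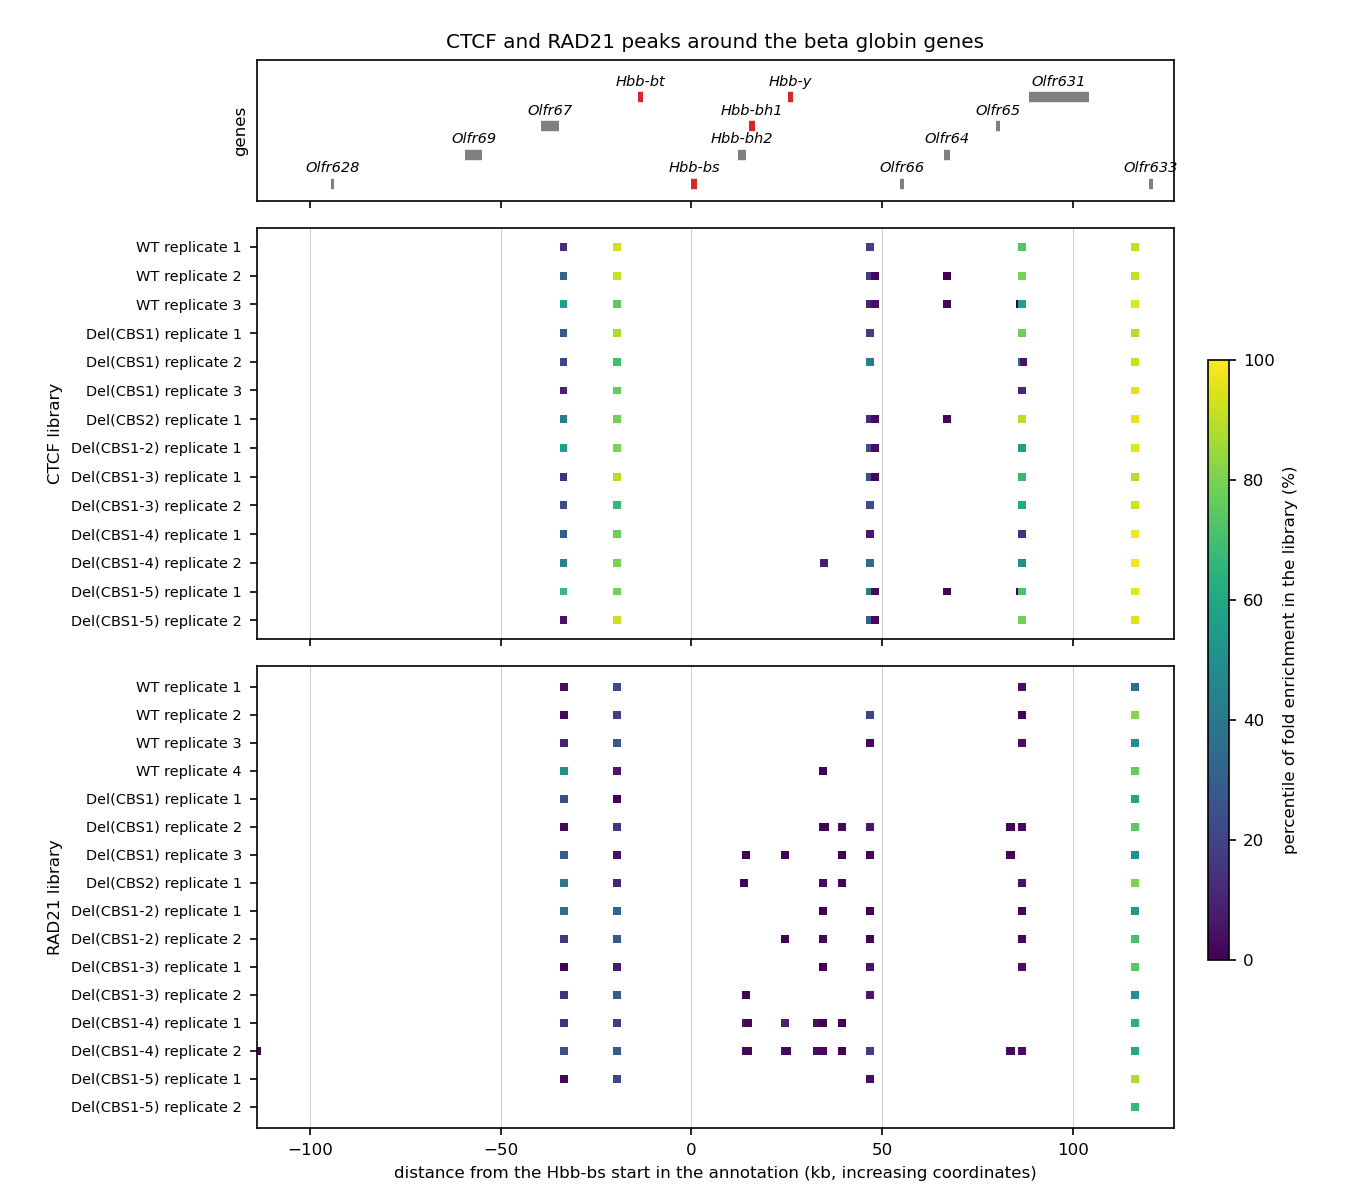
Peaks found in each CTCF and RAD21 library (rows) across the beta window, against the distance from Hbb-bs in kb, with members in red and neighbours in grey above; colour is the percentile of fold enrichment in the library. CTCF columns stand on both sides of the Hbb genes and only 1 CTCF square, in Del(CBS1-4) replicate 2, lies between them, while RAD21 squares there come mainly from Del(CBS1), Del(CBS2) and Del(CBS1-4) libraries.

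The 2 sides of the beta interval were unequal. At 103807090 the WT folds were 18.2, 13.8 and 13.6 and the mutant folds ran from 7.42 to 17.1, with percentiles of 74.9 to 93.6 and 67.0 to 92.2. At 103873283 the WT folds were 8.23, 6.12 and 6.30, the percentiles were at most 18.0, and 10 of 11 mutant libraries had a peak, the exception being Del(CBS1) replicate 3. Further out, olfactory receptor genes flank the cluster on both sides. The site at 103793029, 1199 bp from Olfr67, had WT folds of 7.36, 7.54 and 11.7 against 4.13 to 12.3. The site at 103913172, 1890 bp from Olfr631, had WT folds of 15, 12.1 and 11.7 against 4.27 to 18.9. The site at 103942941, 3627 bp from Olfr633, had percentiles of 90.8 to 95.1 in WT and 87.9 to 98.2 in mutants, with WT folds of 17.5, 13.8 and 17.2. Groups overlapped at each.

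RAD21 was found in all 4 WT libraries at 3 of these beta positions. At 103942916 the WT folds were 7.64, 11.97, 8.79 and 14.1 and the mutant folds 7.81 to 15.3, in 16 of 16 libraries. At 103807080 the WT folds were 6.67, 6.90, 7.21 and 6.62 and the mutant folds 3.50 to 8.04, and only Del(CBS1-5) replicate 2, the shortest list, had no peak. At 103793050 the WT folds were 4.59, 4.79, 5.62 and 11.5 and the mutant folds 4.19 to 10.96. The position at 103873276, on the other side of the Hbb genes, was found in 2 of 4 WT and 8 of 12 mutant libraries.

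The windows differed in how many peaks they held per length. CTCF gave 9.07 entries per 100 kb in the alpha window and 2.55 in the beta window, a difference of 6.52 ± 0.876 (SD, n = 14) that was above 0 in 14 of 14 libraries (2-sided exact sign-flip test, adjusted p = 0.000122, the smallest it can give). RAD21 gave 5.84 and 2.88, a difference of 2.96 ± 0.931 (SD, n = 16), above 0 in 16 of 16 libraries (adjusted p = 6.1e-05).

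RAD21 lay over part of the CTCF sites. Of the 30 CTCF sites of all WT libraries, 11 (36.7%) had a RAD21 peak over them in all 4 WT libraries, namely 8 of 25 in the alpha and 3 of 5 in the beta window. Of all 50032 such CTCF sites 39.5% did. With a RAD21 peak in at least 1 WT library the counts were 20 of 30 (66.7%), against 65.5%. Over the CTCF sites found in all 14 libraries they were 11 of 22 (50.0%), against 58.8%, and at the stricter threshold on both lists (-log10 q of 10 or more) 6 of 26 (23.1%), against 33.0%. With any RAD21 peak base within 150 bp they were 12 of 30 (40.0%), against 42.2%. These counts use overlapping sets of sites, so they are not separate evidence, and no test of the difference was made. The 30 sites include 32152802, 32162109, 32182354 and 32216551, where some libraries had no CTCF summit of their own. RAD21 covered these in 0, 3, 2 and 0 of 4 WT libraries, which lowers the globin share.

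Ranks of the globin sites found in every library, 22 of 49 for CTCF and 6 of 57 for RAD21, were compared for the average of the alleles and for Del(CBS1-5) and Del(CBS1) singly; the other 4 alleles were not fitted singly. Of the 22 CTCF sites found in every library, limma called 0 for the average of the alleles, where 0.00312% of all sites were called, 0 for Del(CBS1-5) (0.0156% of all) and 0 for Del(CBS1) (0% of all). At an unadjusted p under 0.05 there were 0, 0 and 1, against 806, 511 and 1668 of all 32080 sites. Of the 6 RAD21 sites 0 were called in the same contrasts, where 0%, 0.0463% and 0.00771% of all were. An unadjusted p under 0.05 was had by 0, 0 and 1 of them, against 510, 1239 and 660 of all 12972 sites. The smallest p belonged to RAD21 at 32324850 in Del(CBS1), at -0.84 ± 0.29 normal scores and an adjusted p of 0.881. The median difference over the 22 CTCF sites was 0.03, against 0.00 over all sites, for the average of the alleles, and over the 6 RAD21 sites it was 0.16 against -0.00. The percentile ranges of WT and mutant libraries overlapped at each of these sites, but non-overlap was rare everywhere, at 0.15% of all CTCF and 0.0463% of all RAD21 sites found in every library, so nothing is read from this.

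**Figure D3:**
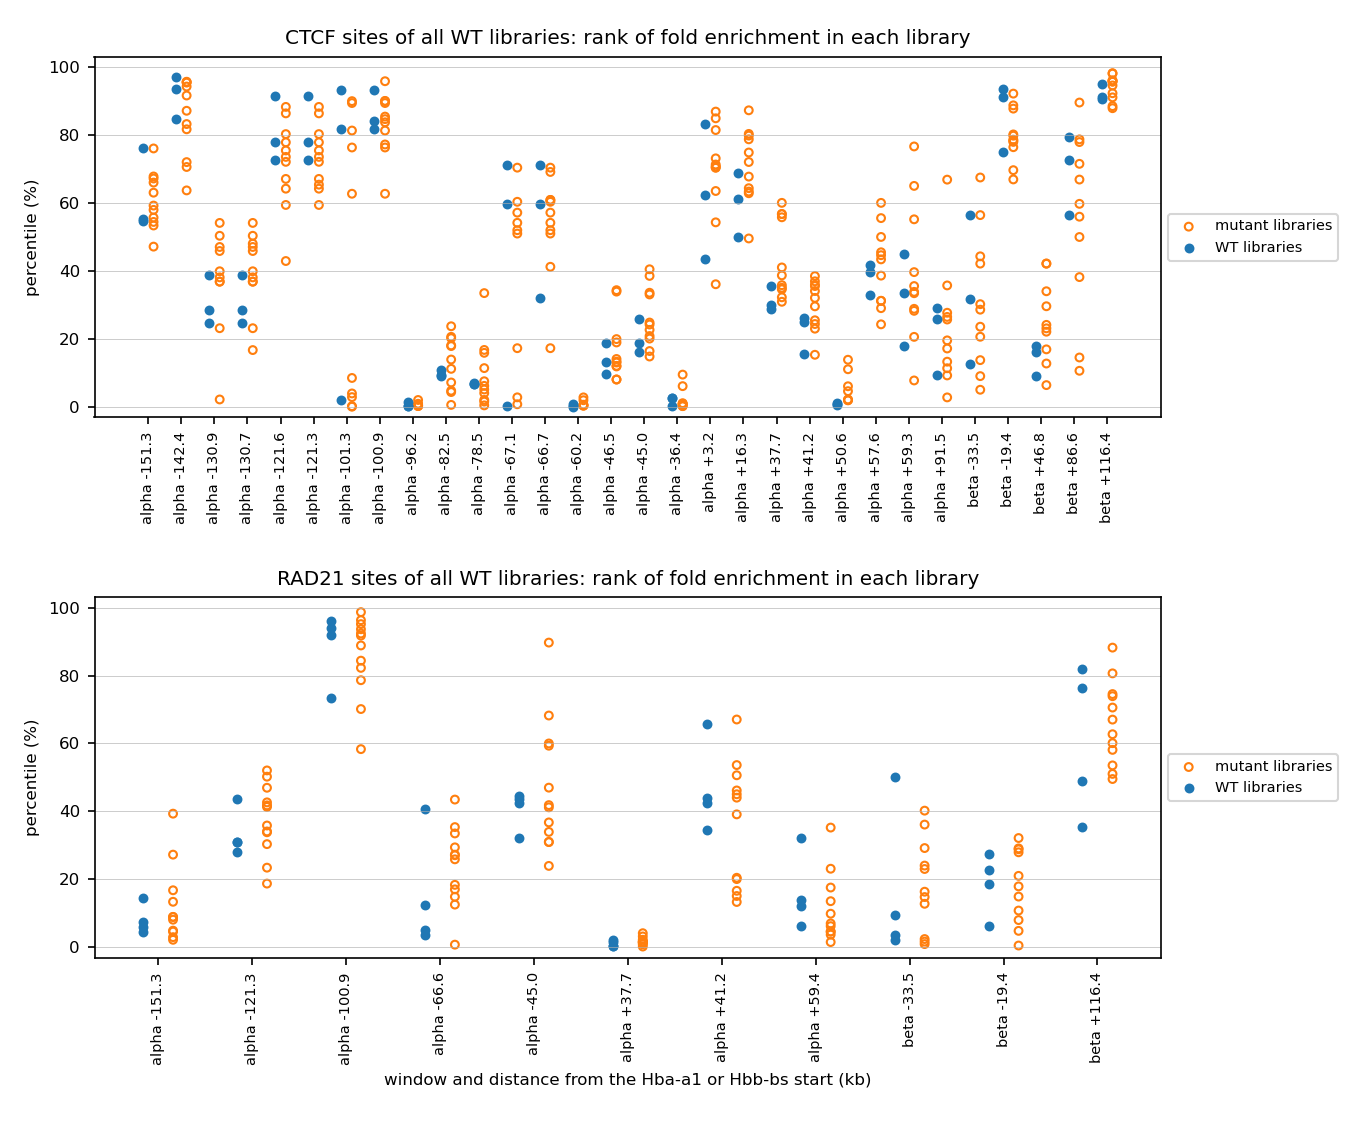
Percentile of fold enrichment (%) at each CTCF site (upper) and RAD21 site (lower) found in all WT libraries, labelled by window and by distance from Hba-a1 or Hbb-bs in kb. Filled points are WT libraries and open points are mutant libraries that found the site; the 2 kinds of point share their range at all 22 CTCF and 6 RAD21 sites found in every library, as they do at nearly all sites of the genome (non-overlap at 0.15% and 0.0463%).

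The number of entries was compared as well. CTCF entries in the alpha window per 10000 of the list averaged 4.19 ± 0.338 over the 3 WT libraries and 4.18 ± 0.662 (SD) over the 11 mutant libraries (2-sided exact permutation test, adjusted p = 0.989), and in the beta window 1.08 ± 0.139 and 1.06 ± 0.203 (adjusted p = 0.989). RAD21 entries in the alpha window were 4.01, 3.76, 3.69 and 3.80 per 10000 in WT and 3.49 to 6.31, with a median of 5.01, in mutants. The means were 3.82 ± 0.137 (SD, n = 4) and 4.97 ± 0.841 (n = 12), with an exact permutation p of 0.0192 that did not pass after adjustment over 4 tests (adjusted p = 0.0769). In the beta window they were 1.498 ± 0.252 and 2.192 ± 0.878 (exact permutation, adjusted p = 0.309). With 1 library left out, the same exact permutation test gave an adjusted p of 0.0586 to 0.193 in 14 settings. It gave 0.0205 only without Del(CBS1-3) replicate 1, the 1 mutant library below the WT range in the alpha window. That library goes against the difference, so its removal is no added evidence. With the 16676 strongest entries of every list the alpha difference was 0, both means being 3.90, so no difference was seen among the strongest entries.

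Weaker RAD21 entries were found at 27 positions with no CTCF site of all WT libraries within 1 kb, 15 in the alpha and 12 in the beta window. Of these, 23 (85.2%) were in no WT library, against 62.7% of all 35102 RAD21 positions without CTCF, and 13 (48.1%) were in 1 library, against 55.7%. Both shares come from the same 12 mutant and 4 WT libraries, and the cause of the difference was not tested. The description by distance from CTCF was chosen after the data were seen. In the alpha window the nearest gene was Nprl3 for 6 of the 15 and Hba-x for 3, and the other 6, each in 1 library, lay in Rhbdf1 or nearest to Hba-a1, Hba-a2, Hbq1a or Hbq1b. The position 62 bp from the end of Hba-x, at 32278178, was found in 9 libraries, 2 of 4 WT (folds of 3.29 and 6.88) and 7 of 12 mutants (3.86 to 7.77). Inside Nprl3, 32251104 was found in 1 WT (4.02) and 6 mutant libraries (2.97 to 5.73), and 32256311 in 0 WT and 5 mutant libraries (3.30 to 4.50). A position 146 bp before Hba-x, at 32276454, was found in 3 mutant libraries at 2.85 to 3.29.

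In the beta window the nearest gene was Hbb-y for 6 of the 12, Hbb-bh2 for 2 and Hbb-bh1 for 1. The other 3 lay by olfactory receptor genes, 1 by Olfr243 in 1 library and 2 by Olfr65 in 3 mutant libraries each. The position at 103861109, 7902 bp from Hbb-y, was found in 1 WT library (fold 4.34) and 7 mutant libraries (2.96 to 5.67). The position at 103865954 was found in 5 mutant libraries at 3.05 to 5.39. The position at 103851190, 564 bp beyond the 3' end of Hbb-y, was found in 4 mutant libraries at 2.65 to 5.71. At Hbb-bh2, an annotated beta-like gene, 4 RAD21 libraries had a peak over the annotated span and 4 over its promoter in the table, which lies mostly inside that span, so these are not separate places. This promoter (minus strand, chr7:103840522-103840771) is shown because it was the 1 beta-like promoter of those searched that had a RAD21 peak. A RAD21 summit fell inside this promoter in 1 library only. The match of the promoter to AGATAA is in capitals.

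Hbb-bh2: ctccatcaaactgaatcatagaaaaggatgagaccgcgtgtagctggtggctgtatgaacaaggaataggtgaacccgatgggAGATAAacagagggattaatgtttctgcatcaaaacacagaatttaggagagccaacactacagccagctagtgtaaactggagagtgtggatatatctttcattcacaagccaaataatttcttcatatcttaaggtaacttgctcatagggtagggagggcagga

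AGATAA was also found in the promoter of Hbb-bs, together with CCACACCC, and 0 libraries had a peak there. AGATAA was present in 9.99% and CCACACCC in 3.196% of all promoters of this length. No other promoter among those of Hbb-bt, Hbb-y, Hba-x and Nprl3 held a searched motif. At the Hba-x promoter 3 RAD21 libraries and 0 CTCF libraries had a peak.

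These positions were unevenly spread over the RAD21 libraries. The 4 WT libraries had 0, 2, 0 and 3 of them. The Del(CBS1-4) libraries had 10 and 18, the Del(CBS1) libraries 0, 11 and 8, and the Del(CBS2) library 10. The Del(CBS1-2) libraries had 4 and 4, the Del(CBS1-3) libraries 1 and 3, and the Del(CBS1-5) libraries 1 and 0. Both libraries of Del(CBS1-4) and of Del(CBS1-2), and the single Del(CBS2) library, therefore lay above the WT range, while the 3 Del(CBS1) libraries spanned it and beyond.

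Libraries with lists of like length had different counts. Del(CBS1) replicate 1, with 0 positions, had 18029 entries, and replicates 2 and 3 had 38462 and 33239, while the Del(CBS1-2) libraries, with 4 each, had 38193 and 38727. The share of all RAD21 positions of a library that lay away from CTCF ranged from 3.02% to 31.8%, and was 14.9% and 21.2% in Del(CBS1-4) and 3.77% to 19.6% in WT. WT replicate 2, with 39841 entries and 19.6%, had 2 positions in the globin windows, while Del(CBS1-4) replicate 1, with 37118 entries and 14.9%, had 10. The part of list length in these counts was not tested.

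**Figure D4:**
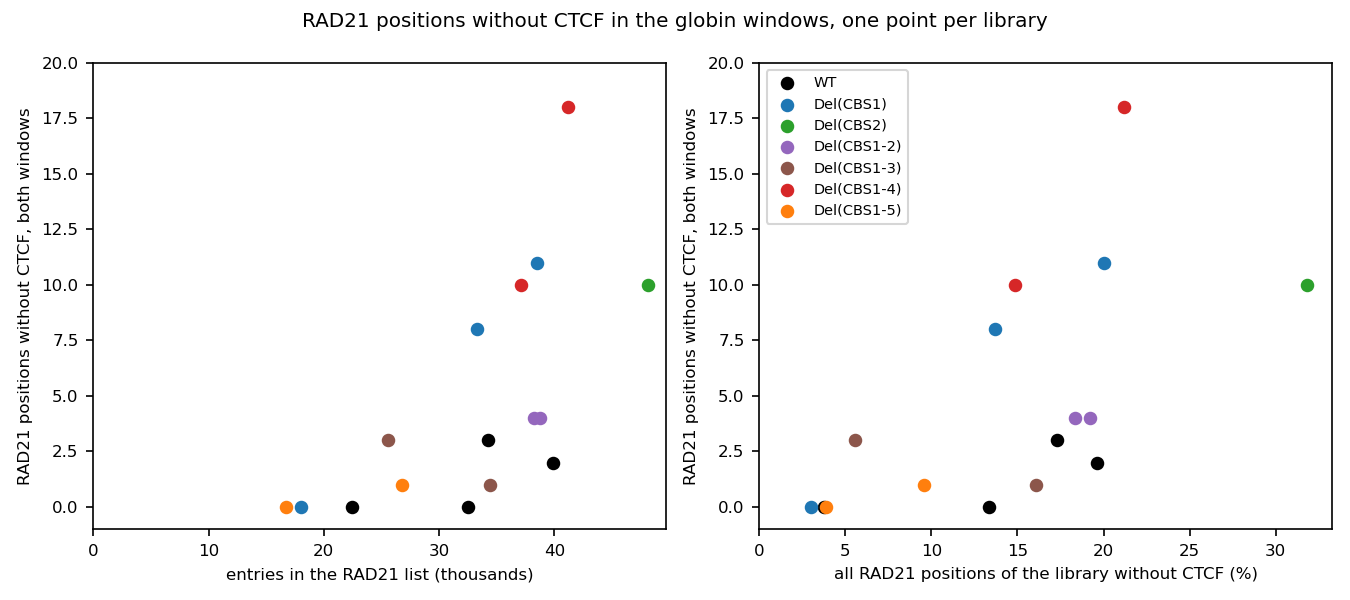
Number of RAD21 positions without CTCF in both globin windows per RAD21 library, against the length of the list (left, in units of 1000 entries) and against the share of all RAD21 positions of the library without CTCF (right, %). Points are libraries, coloured by genotype; the 2 Del(CBS1-4) libraries stand at 10 and 18 and the WT libraries at 0 to 3.

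Both Del(CBS1-4) RAD21 libraries and no WT library had a peak at 10 of the 57 RAD21 positions of the windows (17.5%), against 2.26% of all 79763 positions. Of the 10, 5 lay in each window and 7 had no CTCF site within 1 kb. At 8 of the 10 both libraries had a summit within 150 bp, while at 32183180 and 32278538 1 library only had a wide peak across the position. These wide peaks, with folds of 10.3 and 7.77, also covered 32182778 and 32278178, which were found in 4 and 2 of 4 WT libraries. The position 32182111 lay beside 32182778 as well. So the 10 are not all places apart from sites of WT libraries. There were 6 with no CTCF site within 1 kb and a summit in both libraries. They were 32256311 in Nprl3, and, in the beta window, 103840870 and 103841310 by Hbb-bh2 and Hbb-bh1, 103851190 by Hbb-y, and 103859401 and 103865954 upstream of it. Their folds in replicates 1 and 2 were 4.05 and 4.09, 5.41 and 4.12, 4.29 and 3.88, 5.71 and 4.68, 4.88 and 4.56, and 3.66 and 3.05. Only 103841310 and 103859401 were limited to the 2 Del(CBS1-4) libraries, and the others were found in 4 or 5 mutant libraries, other alleles included. All 6 stood at percentiles below 10. With peaks of -log10 q of at least 10 it was 2 of 23 (8.70%), against 0.719% of all positions, and with the 16676 strongest entries of each list 2 of 57 (3.51%), against 0.726%. With Del(CBS1-4) replicate 1 left out it was 20 of 57 (35.1%), against 10.3%.

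The counts for the other alleles rest on 1 to 3 libraries each, so each is set beside its own share of all positions. It was 1 of 57 (1.75%) for Del(CBS1), which needed a peak in 3 libraries, namely the Hbq1a position (0.00627% of all positions), 3 (5.26%) for Del(CBS1-2) (1.25%), 0 for Del(CBS1-3) (0.176%) and 0 for Del(CBS1-5) (0.01%). In the single Del(CBS2) library it was 11 (19.3%) against 15.8% of all positions. These comparisons share the WT libraries. In the reverse direction, positions of all WT libraries missing from an allele, the RAD21 count was 0 of 57 for each of the 6 alleles. Of all positions 0.0777% met this rule for Del(CBS1), 0.377% for Del(CBS2), 0.0226% for Del(CBS1-2), 0.135% for Del(CBS1-3), 0.0815% for Del(CBS1-4) and 1.03% for Del(CBS1-5).

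**Figure D5:**
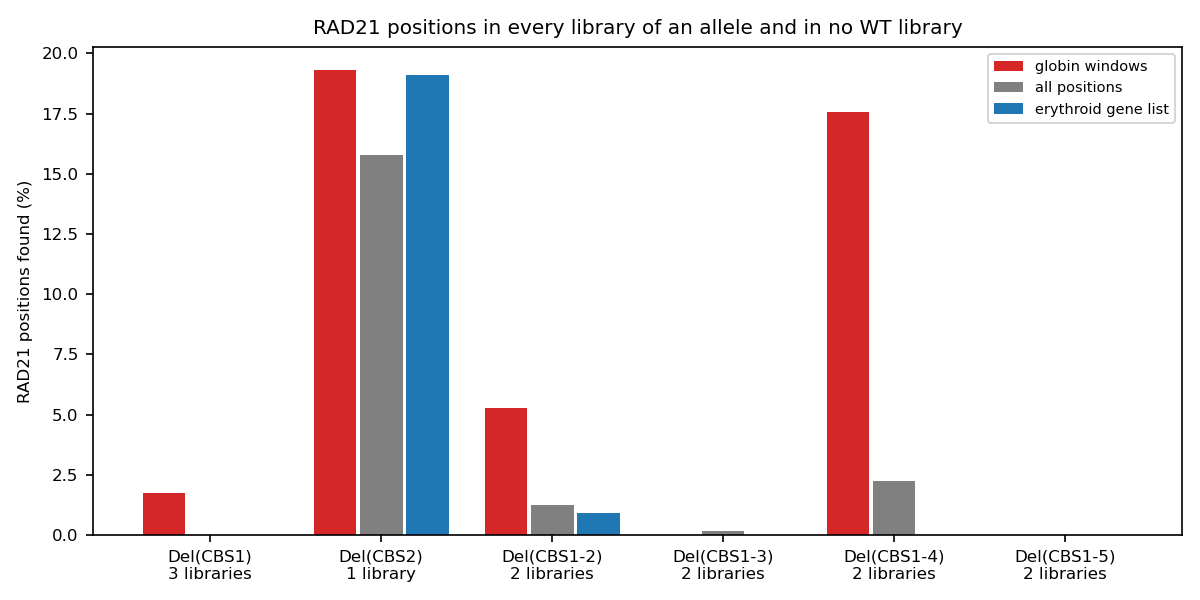
Share of RAD21 positions (%) found in every library of an allele and in no WT library, for the 57 positions of the globin windows, all 79763 positions and the 110 positions at a list of erythroid genes. The bar of the globin windows stands at 17.5% for Del(CBS1-4), where all positions stand at 2.26% and the erythroid list at 0%, while the 3 bars are of similar height for the single Del(CBS2) library. The 17.5% includes 32183180 and 32278538, where 1 library had only a wide peak that also covered a site of WT libraries.

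Single CTCF libraries of Del(CBS1-4) had faint peaks near some RAD21 positions of the windows. Replicate 2 had one at 32256451 in Nprl3 (fold 3.05), one at the end of Hba-x at 32278107 (2.94) and one upstream of Hbb-y at 103861230 (3.98), and replicate 1 had one at 32278345 beyond Hba-x (2.58). None of the other 12 CTCF libraries had a peak at these 4 positions. CTCF sites in 1 library were 8 of the 49 of both windows (16.3%), against 23.0% of all, and other alleles had some too. These were 32267381 in Del(CBS2), 32182052 in Del(CBS1-3) replicate 1 and 103913644 in Del(CBS1) replicate 2. A further such site, 32200664, was in WT replicate 3. The RAD21 positions by 32278107 and 103861230, at 32278178 and 103861109, were also found in 2 and 1 WT libraries, so nothing is read from these peaks. No CTCF position was in both Del(CBS1-4) libraries and no WT library (0 of 49, against 1.04% of all). Faint CTCF sites at 32223511 and 32247269 were in all WT and neither Del(CBS1-4) library (2 of 49, 4.08%, against 2.85% of all). For the other alleles 0 of 49 CTCF positions appeared in Del(CBS1) (0.0184% of all), Del(CBS1-2) (3.06%), Del(CBS1-3) (0.153%) and Del(CBS1-5) (0.587%), and 2 in Del(CBS2) (16.6%). In the reverse direction 0 were missing from Del(CBS1) (1.11% of all), Del(CBS1-2) (0.785%), Del(CBS1-3) (0.255%) and Del(CBS1-5) (0.232%), and 1 from Del(CBS2) (0.789%), the position in Rhbdf1 at 32216551.

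Genes that act in red cells elsewhere in the genome were examined for the same pattern. A list of 25 erythroid genes, among them transcription factors such as Gata1, Klf1 and Tal1 and membrane and haem genes such as Slc4a1 and Alas2, matched the annotation at 24. Within 5 kb, 20 of the 24 had a CTCF site of all WT libraries and 15 a RAD21 site of all WT libraries. No share over all genes is given for these counts, so nothing is read from them. RAD21 positions without CTCF numbered 55 of the 110 RAD21 positions at these genes and lay at 19 of them. Over the genome they numbered 35102 of 79763. The most often found were 1 at Tfrc, the transferrin receptor gene, in 8 libraries and 1 at Nfe2, an erythroid transcription factor gene, in 7. Per library, RAD21 positions without CTCF at these genes numbered 0, 6, 2 and 6 in WT and 6 and 24 in Del(CBS1-4). They numbered 0, 24 and 6 in Del(CBS1), 21 in Del(CBS2) and 7 and 7 in Del(CBS1-2). In Del(CBS1-3) they numbered 3 and 0, and in Del(CBS1-5) 4 and 0. Del(CBS1-4) replicate 2 thus stood above the WT range here too, and replicate 1 did not. In both Del(CBS1-4) libraries and no WT library there were 0 of 110 RAD21 positions at these genes, against 2.26% of all. For Del(CBS2) there were 21 of 110 (19.1%), against 15.8% of all. For Del(CBS1-2) there was 1 of 110 (0.909%), at Tfrc, against 1.25% of all.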

How the data were processed

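Members and gene lists were chosen with earlier results of these data known. The authors deposited 1 narrowPeak list per library on mm10; the tools named per the submitters' processing notes are MACS2 2.1.1.20160309, bedtools 2.27.1, Bowtie2 2.3.5, Picard 2.19.0, cutadapt 1.16 and SAMtools 1.9. In the deposited lists the score is a display value, the signal value is a ratio (fold enrichment at the summit over local background), and -log10 p and -log10 q are those of the peak caller. An interval with several summits is listed once per summit.

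Gene spans and promoters came from RefSeq (GRCm38.p6), with 7 of 8 members found in the promoter table; exons were not used here. Ranks of fold over sites in every library were turned into normal scores and fitted with limma 3.58.1 in R 4.3.3 (trend, robust, 1 coefficient per genotype), with Benjamini-Hochberg adjustment over all sites at 0.05. Exact tests ran in Python 3.11.15 with scipy 1.17.1. The limma fit was tested on simulated data with shifts planted in the mutant libraries. Named were all sites of all WT libraries and the members; others are given by counts, with the most often found named. Alternatives were other linking and detection distances, stricter q, ranks of -log10 p, centred log2 fold, other flanks, equal list lengths, a replicate block and each library left out.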

Additional observations from a re-analysis of the deposited data

Results flagged for a closer look

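RAD21 at 103793050, 1220 bp from Olfr67 in the beta window, had 1 WT library far from the other 3. WT replicate 4 stood at a percentile of 50.2, and replicates 1, 2 and 3 stood at 3.63, 2.22 and 9.61. Its fold was 11.5, and the others had 4.59, 4.79 and 5.62. Of 14 sets of 4 WT values tested for such a gap 1 was marked, and chance marks about 1 in 20.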

How the results depend on the processing

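The limma counts of called globin sites were 0 in all 129 alternatives run for the 6 contrasts and antibodies, the replicate block included. The excess of alpha over beta entries kept its sign and passed the test throughout, at 4.40 to 8.09 (CTCF) and 1.31 to 3.77 (RAD21) per 100 kb, and at 6.44 to 6.66 and 2.86 to 3.05 with 1 library left out.

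The CTCF difference between mutant and WT libraries per 10000 entries lay near 0 and changed sign. In the alpha window it was 0.207 with peaks of -log10 q of at least 10, 0.0303 with equal list lengths, 0.0271 with the replicate block, and -0.166 to 0.171 with 1 library left out. In the beta window it was 0.00480 with 200 kb flanks, 0.0682 with equal list lengths and -0.0849 to 0.0538 with 1 library left out. The RAD21 difference was 1.04 to 1.29 (alpha, adjusted p of 0.0205 to 0.193 by exact permutation) and 0.539 to 0.838 (beta) with 1 library left out, and 0 in both with equal list lengths.

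RAD21 accompanied 66.7% of CTCF sites when 1 WT library sufficed (65.5% of all), and 23.1% at the stricter q (33.0% of all). RAD21 sites found in every library numbered 10 with any base within 250 bp and 3 at the stricter q, against 6. Positions in both Del(CBS1-4) libraries and no WT library, with alternatives chosen after seeing the data, numbered 2 of 23 at the stricter q (8.70%, against 0.719% of all), 2 of 57 with equal list lengths (3.51%, against 0.726%) and 10 to 20 with 1 library left out (17.5% to 35.1%, against 2.32% to 10.3%). The cause was not tested, though the stricter q and equal list lengths keep fewer entries by construction.

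Deviations of same-numbered libraries had correlations of -0.243 to 0.262 for CTCF and -0.188 to 0.274 for RAD21. Other pairs had -0.305 to 0.305 and -0.174 to 0.188. With so few libraries per group this cannot show whether the numbers pair the samples. With the replicate block the RAD21 alpha difference had an adjusted p of 0.143 by exact permutation, and the block changed no call.

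The lists carry no depth, and short lists hold fewer weak entries.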
